A study of Mus musculus with 1152 samples.

Results

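The lymphatic endothelial cells (LECs) described here, called IEG-high, were the 25% with the highest immediate-early gene score, about 160 of about 660 single cells sorted from the nasopharyngeal lymphatics of aged mice. They were selected on the mean of the deposited values of 6 genes, Fos, Fosb, Jun, Junb, Atf3 and Egr1, and were compared across all other genes with the 25% of cells with the lowest mean, called IEG-low, equal in number, while 50% of cells lay between. All cells were of 1 group, from aged C57BL/6 mice (C57BL/6J in the methods) with no treatment, and no allele or transgene was given. According to the methods, the nasopharyngeal mucosa of aged mice of both sexes was pooled, cut and digested warm with collagenase, dispase and DNase, after which CD31+ PDPN+ cells were sorted as single cells into plates and sequenced by Smart-seq3, a full-length protocol. Neither the labels nor the methods separate animals or preparations, so all cells were treated as 1 pool. No p-value or standard error was computed from cells. Values are the natural log of 1 plus reads per 10000 (ln value), and a spread over cells or over blocks of cell numbers covers neither animals nor preparations.

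Immediate-early genes are transcribed within minutes of a stimulus, before new protein is made. FOS and JUN family proteins pair into the transcription factor AP-1, EGR1 binds GC-rich promoter sites, and ATF3 is induced by many stresses. The response is brief because it also induces its own brakes, among them phosphatases, mRNA-decay proteins and cytokine-signalling suppressors. In endothelial cells the genes respond to growth factors, cytokines and flow, and they are also known to be induced when tissue is digested to free single cells. Whether the RNA was made in the tissue or during digestion cannot be told apart here, since every cell was digested and no undigested tissue was analysed here.

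The score genes set the groups, so their values are a description. Fos, a partner of JUN in AP-1, had a median ln value of 4.98 in IEG-high cells (2.06 to 6.87) and 0.70 in IEG-low cells (0 to 3.10). Atf3 had a median of 3.84 (0.84 to 5.43) against 0.15 (0 to 1.84), and Junb of 3.75 (1.93 to 5.85) against 0.28 (0 to 2.90). These genes separated almost all cells of the groups, with 99.4% of IEG-high cells above the highest IEG-low cell for Fos. Jun had a median of 3.58 (1.59 to 4.95) against 0.49 (0 to 2.99), and Egr1 of 3.01 (0.20 to 4.97) against 0.07 (0 to 1.70). Fosb, the least abundant by reads of the 6 in these cells before any correction for length, had a median of 2.22 (0 to 4.17) against 0.02 (0 to 1.01). The 6 genes together took a median of 3.18% of an IEG-high cell's reads (1.43% to 10.6%) and 0.0419% of an IEG-low cell's (0 to 0.364%).

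The score ran from 3.09 to 4.90 in IEG-high cells (median 3.44) and from 0 to 1.03 in IEG-low cells (median 0.40). It had 2 humps over all cells: 56 cells lay between 0.25 and 0.5, 23 between 1.75 and 2, and 63 between 2.75 and 3. The boundary of IEG-high cells fell inside the upper hump. The last cell inside scored 3.09219 and the first outside 3.08998, with 47 cells within 0.1 of the boundary. At the lower boundary the last cell inside scored 1.03247 and the first outside 1.04248, with 20 cells within 0.1. At full depth, which differed between cells, all 6 genes were detected in 99.4% of IEG-high cells, 44.5% of IEG-low cells and 79.4% of all cells. There was 1 cell with none. With cells thinned to 20000 reads, single score genes were detected in 16.9% (Fosb) to 77.5% (Fos) of IEG-low cells and 99.3% to 100% of IEG-high cells.

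**Figure D1:**
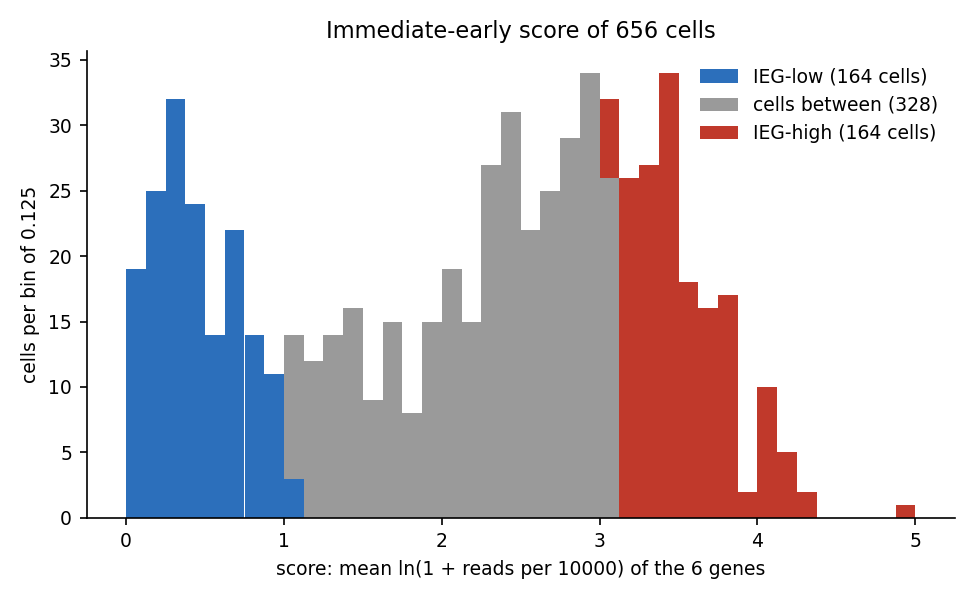
Histogram of the score (mean ln value of the 6 genes, x axis) over all cells, with cells per bin on the y axis. Blue marks the 25% IEG-low cells, grey the 50% between and red the 25% IEG-high cells, which begin at 3.09 within the upper hump.

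Over all cells the 15 pairs of score genes had a median Spearman rho of 0.71 (0.64 to 0.78). Among IEG-high cells the median was 0.10 (-0.01 to 0.38), and among IEG-low cells 0.19 (-0.01 to 0.53). All genes of a cell share its library and its total, and cutting the range of the score lowers any such value.

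Total reads per cell ran from 8174 to 6695380 (median 177971) in IEG-high cells and from 11381 to 6051150 (median 240946) in IEG-low cells, so the groups overlapped over nearly the whole range of depth. The score had a rho of -0.10 with total reads, 0.07 with genes detected and -0.24 with the mitochondrial share of reads over all cells. The labels number the cells and name neither plates nor animals, so cell numbers were split into 12 blocks of 96 as a stand-in for order. The share of IEG-high cells in a block was 22.6% to 32% in blocks 1 to 6, 11.1% to 18.3% in blocks 7 to 11 and 26.3% in block 12. Membership was thus uneven over cell order. Blocks 8 and 9 stood apart in depth, with medians of 2450280 and 2042790 reads against 52583 to 231193 in the other 10. Those 2 blocks held fewer than 5 cells of at least 1 of the groups and were not compared within, and without either the counts below were 96 or 97 genes higher and 7 or 8 lower.

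Of 9660 genes outside the score that were detected in at least 10% of cells, 98 (1.01%) had a mean ln value at least 0.5 higher in IEG-high cells, and 8 (0.0828%) at least 0.5 lower, called higher and lower below. The split was one-sided: 37 genes were higher by at least 1 and 0 lower by at least 1, while the median difference over all 9660 was -0.0016. Of the 98 genes, 89 were at least 2-fold higher by the mean of linear values. Genes called higher took a median of 9.88% of reads in IEG-high cells and 2.72% in IEG-low cells. The count depends on the scale. The log of linear group means, taken with an offset of 0.1 in place of 1, can be carried by a few cells. It put 5.39% of the 9660 genes past the threshold as higher and 6.20% as lower. The offset of 0.1 alone, on means of log values, gave 3.98% and 0.424%. With the linear means, 96 of the 98 and 7 of the 8 were again past the threshold in the same direction.

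**Figure D2:**
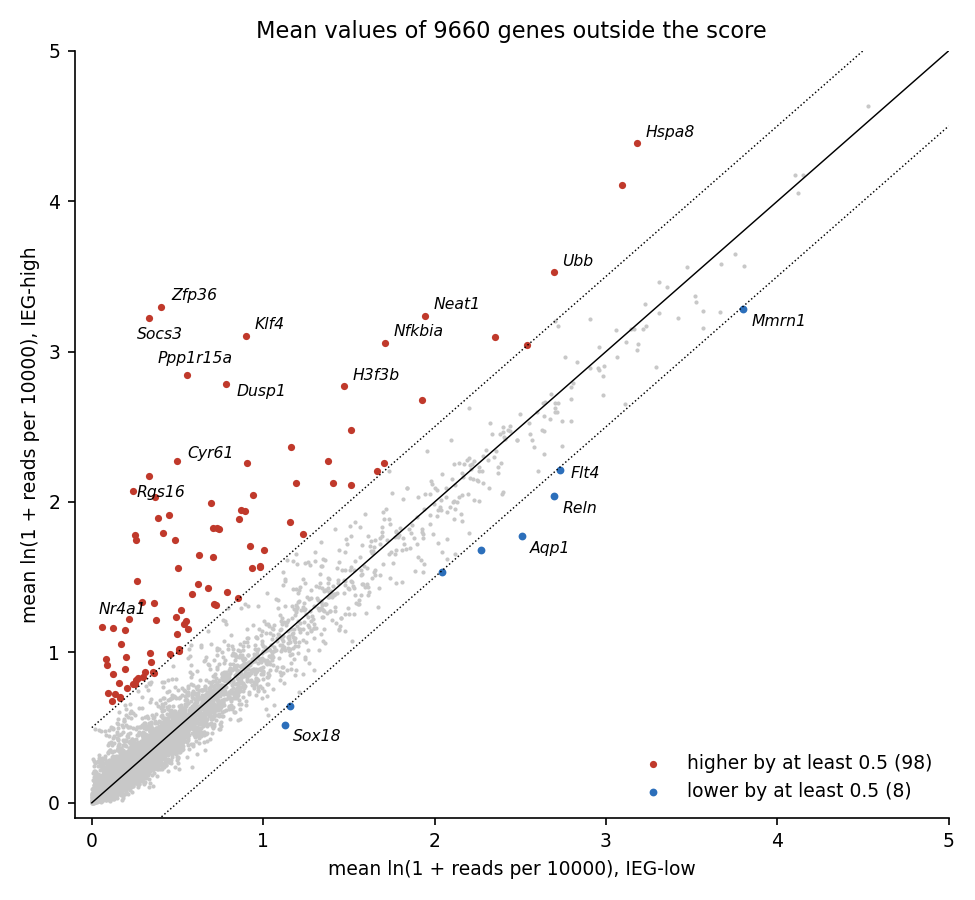
Mean ln value of each of 9660 genes in IEG-low cells (x axis) and IEG-high cells (y axis), both ln(1 + reads per 10000). The solid line is equality and the dotted lines a difference of 0.5, with the 98 genes called higher in red and the 8 called lower in blue.

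Zfp36 and Socs3, feedback inhibitors, had the 2 largest differences of the genes tested. Zfp36 encodes tristetraprolin, which binds AU-rich mRNAs, including those of cytokines and early genes, and hastens their decay. It had a median ln value of 3.33 in IEG-high cells (0.50 to 4.91) and 0.19 in IEG-low cells (0 to 2.48), a difference in means of 2.90 (2.17 to 3.20 over 10 blocks). Socs3, which blocks JAK-STAT signalling from cytokine receptors, had medians of 3.38 (0 to 5.29) and 0.16 (0 to 2.27) and a difference of 2.89 (2.35 to 3.14). Both groups overlapped, but 85.4% of IEG-high cells for Zfp36 and 87.2% for Socs3 lay above the highest IEG-low cell. On the linear scale Zfp36 averaged 35.2 and 0.734 reads per 10000 (47.9-fold) and Socs3 33.7 and 0.560 (60.2-fold).

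Ppp1r15a (GADD34), which restores translation by directing a phosphatase to eIF2-alpha, had medians of 2.95 (0 to 4.51) and 0.30 (0 to 3.43), a difference in means of 2.29 (1.63 to 2.72 over blocks). Dusp1, a phosphatase that switches off MAP kinases, had medians of 2.81 (0.21 to 5.48) and 0.54 (0 to 2.69), a difference of 2.003 (1.57 to 2.61). The anti-proliferative gene Btg2 was 1.66 higher (0.76 to 2.19). Each of these was higher in 10 of 10 blocks. Genes named for the largest differences had to have 1 sign in all 10, so this is no separate support. The genes of NF-kB regulators differed less. Nfkbiz, encoding an atypical IkB protein, was 1.49 higher. Nfkbia, encoding IkB-alpha, was 1.35 higher, from an already high IEG-low mean of 1.71. Sgk1, a kinase induced by glucocorticoids and serum, was 1.30 higher. The growth-arrest genes Gadd45b (1.01), Gadd45g (0.95) and Btg1 (0.51) were also called.

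Of 38 feedback inhibitors listed, 35 were tested, and 11 (31.4%) were called higher and 0 lower, against 1.01% and 0.0828% of all genes tested. The list median was 0.22 (block SD 0.09) against -0.0016 over all genes tested. The list did not move as 1 block. Other MAP kinase phosphatases and ERK inhibitors differed little: Dusp6 by 0.27, Spry1 by 0.22, Dusp5 by 0.14 and Spry2 by 0.02. Tnfaip3 (A20), an NF-kB brake, differed by 0.11, and Socs2 by 0.03. The score had a rho with Zfp36 of 0.83, the highest of all genes outside it, followed by Socs3 (0.76), Klf4 (0.74) and Ppp1r15a (0.71). Also among the 10 highest were Hspa8 (0.68), Sertad1 (0.66), Nfkbiz (0.66), Rgs16 (0.63) and Dusp1 (0.63).

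The bases before the start sites of genes called higher were read for sites of the best-known factors of the early response. The 4 windows shown were picked because each holds 1 such motif. Each motif searched was found in at most 11.3% of the genes called higher that had a window, and the CArG box in 1 gene only. The 250 bases before the start site, in the direction of the gene (all 4 on the minus strand of GRCm38.p6, RefSeq), are given with the motif in capitals. Zfp36 (chr7:28379229-28379478) holds a CArG box, the binding motif of serum response factor, with its first base 58 bases before the start. Dusp1 (chr17:26508473-26508722) and Ppp1r15a (chr7:45526269-45526518) each hold a full cAMP response element, TGACGTCA, bound by CREB and ATF proteins, which in Ppp1r15a begins 12 bases before the start. Nfkbia (chr12:55492648-55492897) holds an NF-kB motif 29 bases before the start.
Zfp36: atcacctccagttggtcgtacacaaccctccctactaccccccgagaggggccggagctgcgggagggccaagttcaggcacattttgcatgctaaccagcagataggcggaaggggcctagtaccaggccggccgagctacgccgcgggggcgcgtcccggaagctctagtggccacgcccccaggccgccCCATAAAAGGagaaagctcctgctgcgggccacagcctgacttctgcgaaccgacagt
Dusp1: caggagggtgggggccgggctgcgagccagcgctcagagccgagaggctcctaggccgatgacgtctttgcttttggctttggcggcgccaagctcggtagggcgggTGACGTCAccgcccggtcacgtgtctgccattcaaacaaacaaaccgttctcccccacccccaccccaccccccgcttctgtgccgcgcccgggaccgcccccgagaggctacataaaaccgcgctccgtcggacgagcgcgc
Ppp1r15a: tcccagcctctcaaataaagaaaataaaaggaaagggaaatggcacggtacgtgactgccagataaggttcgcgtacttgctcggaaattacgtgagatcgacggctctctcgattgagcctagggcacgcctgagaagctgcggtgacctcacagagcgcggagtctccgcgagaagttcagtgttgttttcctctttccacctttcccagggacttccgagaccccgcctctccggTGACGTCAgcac
Nfkbia: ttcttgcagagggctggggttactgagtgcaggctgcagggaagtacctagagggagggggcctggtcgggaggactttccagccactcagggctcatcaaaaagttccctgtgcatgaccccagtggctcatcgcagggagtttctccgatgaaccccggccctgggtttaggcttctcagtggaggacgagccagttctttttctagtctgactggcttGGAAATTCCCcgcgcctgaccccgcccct

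RefSeq windows of 300 bases, from 250 before to 50 after the start, were matched for 80 of the 98 genes called higher (110 windows) and 7383 of the 9660 tested (9509 windows). The cAMP response element TGACGTCA, which reads the same on both strands, stood in 8.18% of windows of genes called higher, 3.09% of windows of tested genes and 1.79% of all 32841 windows. The AP-1 motif, TGACTCA on either strand, stood in 6.36%, 3.49% and 5.20%. The NF-kB motif on either strand stood in 8.18%, 5.31% and 4.51%, and the CArG box in 0.909%, 1.30% and 1.63%. Of the score genes 5 were matched and their windows held an NF-kB motif in 2 and none of the other motifs. The 6 windows of the genes called lower held none of the 4 motifs. A match is a run of letters in this window and was not tested as a site.

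Among the other immediate-early transcription factors, all 28 tested were above 0, with a median difference of 0.50 (block SD 0.09). Of these, 14 (50%) were called higher, against 1.01% of all genes tested. The list held 34 genes, and 6 were detected in too few cells to be tested. Klf4, an endothelial and epithelial zinc-finger factor, had medians of 3.15 in IEG-high cells (1.34 to 4.97) and 0.77 in IEG-low cells (0 to 2.91), a difference in means of 2.21 (1.87 to 2.60 over blocks). Klf2, the flow-induced relative of Klf4, had medians of 1.996 (0 to 3.75) and 0.07 (0 to 2.24), a difference of 1.46 (0.93 to 2.24). Irf1, an interferon regulatory factor that is also an early NF-kB and STAT target, had medians of 1.97 (0 to 4.64) and 0.07 (0 to 3.54), a difference of 1.503 (0.72 to 2.34). In all 3 genes the ranges overlapped while the medians stood far apart.

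The orphan nuclear receptor Nr4a1 was detected in 76.8% of IEG-high and 37.8% of IEG-low cells at full depth. It had a median of 0.86 (0 to 4.45) against 0 (0 to 1.56), and its linear mean was 6.29 against 0.0890 reads per 10000. With every cell thinned to 20000 reads, so that shares could be compared at 1 depth, it was detected in 58.3% of IEG-high cells (exact 95% interval 49.8% to 66.5%) and 7.5% of IEG-low cells (3.93% to 12.7%). In thinned cells Nr4a2 was detected in 40.97% and 4.38% (51.2% and 13.4% at full depth), and Egr2 in 25.7% and 0.625% (32.3% and 6.10%), although their differences in means, 0.47 and 0.28, were below the threshold. Intervals cover only the counting error of a share of cells, and neither animals nor preparations. Reads were not collapsed to molecules. Also called were Ier3 (1.21), Id3 (1.11), Ier2 (1.03), Csrnp1 (0.88), Fosl2 (0.77), Bhlhe40 (0.74), Klf6 (0.61), Maff (0.56), Mafk (0.55) and Ier5 (0.54). Jund, the JUN member that is usually constitutive, differed by 0.24, and Myc by 0.32.

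Of 15 tested genes for secreted or early surface proteins, 3 (20%) were called higher, against 1.01% of all genes tested. The list median was 0.12. Cyr61, encoding the matricellular protein CCN1, a target of YAP and serum response factor, was 1.78 higher (1.09 to 2.66 over blocks), with medians of 2.62 (0 to 5.16) and 0.19 (0 to 4.30). Ctgf, its relative and usual companion target, had means of 0.29 and 0.31. Apold1, an endothelial early gene, was 1.02 higher, and Adamts1, a secreted protease, 0.96 higher.

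**Figure D3:**
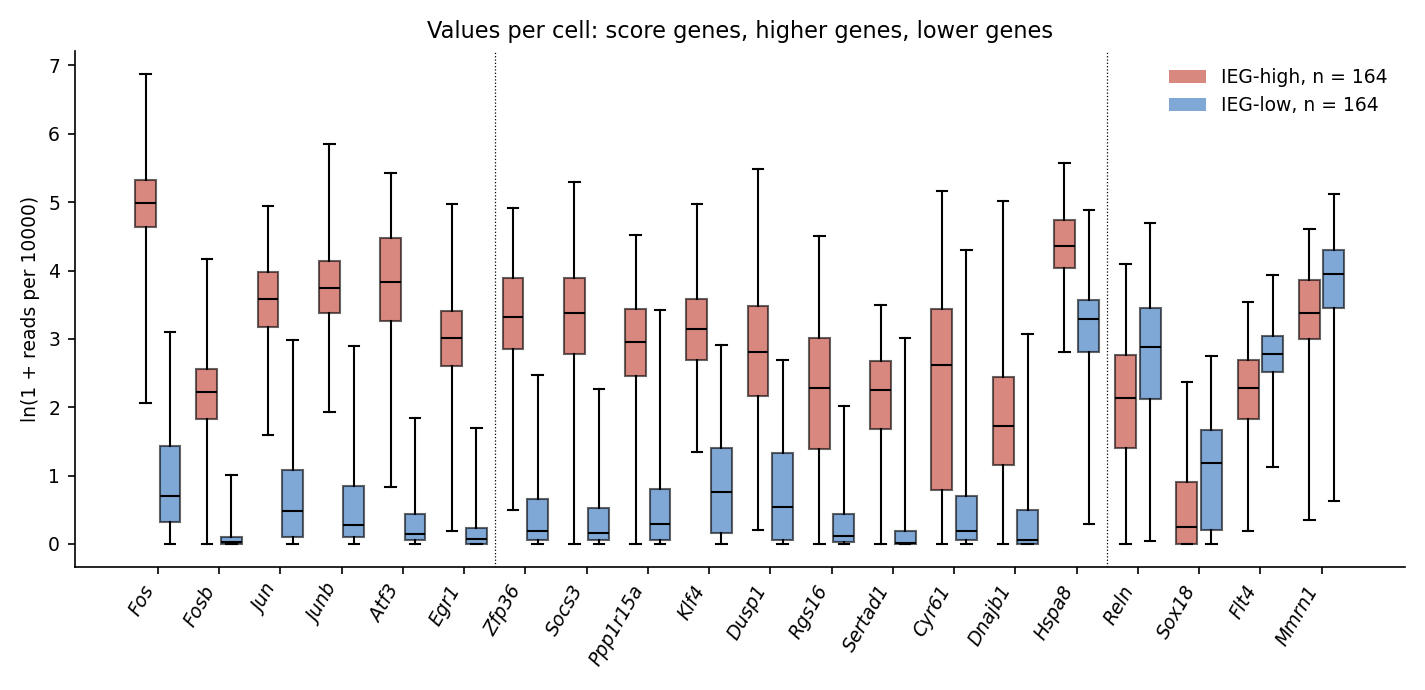
Ln value per cell (y axis) in IEG-high (red) and IEG-low cells (blue), 25% of cells each, with boxes from the 25th to the 75th percentile, a line at the median and whiskers to the lowest and highest cell. The 6 score genes are on the left, genes called higher in the middle and 4 LEC genes called lower on the right, where the boxes are closer together.

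Of 21 heat shock and chaperone genes tested, 10 (47.6%) were called higher and 0 lower, against 1.01% and 0.0828% of all genes tested. The median difference of the list was 0.47 (block SD 0.11). Dnajb1, an HSP40 co-chaperone induced by heat shock factor, had medians of 1.72 in IEG-high cells (0 to 5.01) and 0.06 in IEG-low cells (0 to 3.08), a difference in means of 1.38 (0.82 to 1.90). Hspa8, the constitutive HSC70, was present in every cell, with medians of 4.36 (2.81 to 5.57) and 3.29 (0.29 to 4.88), a difference of 1.21 (0.92 to 1.44). Hsp90aa1, the inducible HSP90, was 1.10 higher, while Hsp90ab1, the constitutive form, was 0.51 higher. The polyubiquitin gene Ubb was 0.83 higher. The inducible Hspa1a and Hspa1b, a near-identical pair whose reads can be split between them, were 0.83 and 0.63 higher and were detected in 52.8% and 52.8% of thinned IEG-high cells and 10.6% and 18.8% of thinned IEG-low cells (69.5% and 64.6%, and 40.9% and 40.9%, at full depth). Of the mitochondrial chaperonin genes, Hspd1 was at -0.08 and Hspe1 at -0.01.

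In other stress programmes 14.3% to 16.7% of tested genes were called higher, against 1.01% of all genes tested, beside list medians near 0. In the integrated stress and unfolded protein response, 2 of 14 were called, Atf4 (1.08), the central factor of the former, and Hspa5 (0.89), the main chaperone of the endoplasmic reticulum, with a list median of 0.05. Trib3 and Xbp1, targets downstream, were at -0.04 and -0.08. Of 13 metal and oxidative stress genes 2 were called, the autophagy receptor Sqstm1 (0.97) and the haem-degrading enzyme Hmox1 (0.56), with a list median of 0.08. Of 12 p53 response genes 2 were called, the cell-cycle inhibitor Cdkn1a (1.04) and the kinase gene Plk2 (0.75), with a list median of 0.06, while Ccng1 and Zmat3 were both at -0.02.

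Of 16 NF-kB inflammatory genes tested, 13 were above 0 and 1 was called higher (6.25%, against 1.01% of all genes tested). This was Icam1, the leukocyte adhesion molecule, with a difference in means of 1.06. Its medians were 1.53 (0 to 4.46) and 0.08 (0 to 3.32). The list median was 0.08. The chemokine genes Cxcl1 and Ccl2 differed by 0.21 and 0.10. Il6, Csf3 and Ptgs2 were in too few cells to be tested: Il6 was detected in 14 IEG-high and 3 IEG-low cells (8.54% and 1.83%), Csf3 in 10 and 2, and Ptgs2 in 6 and 2. No apoptosis gene of 13 tested was called, and Mcl1, a short-lived survival factor, was nearest, at 0.46.

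**Figure D4:**
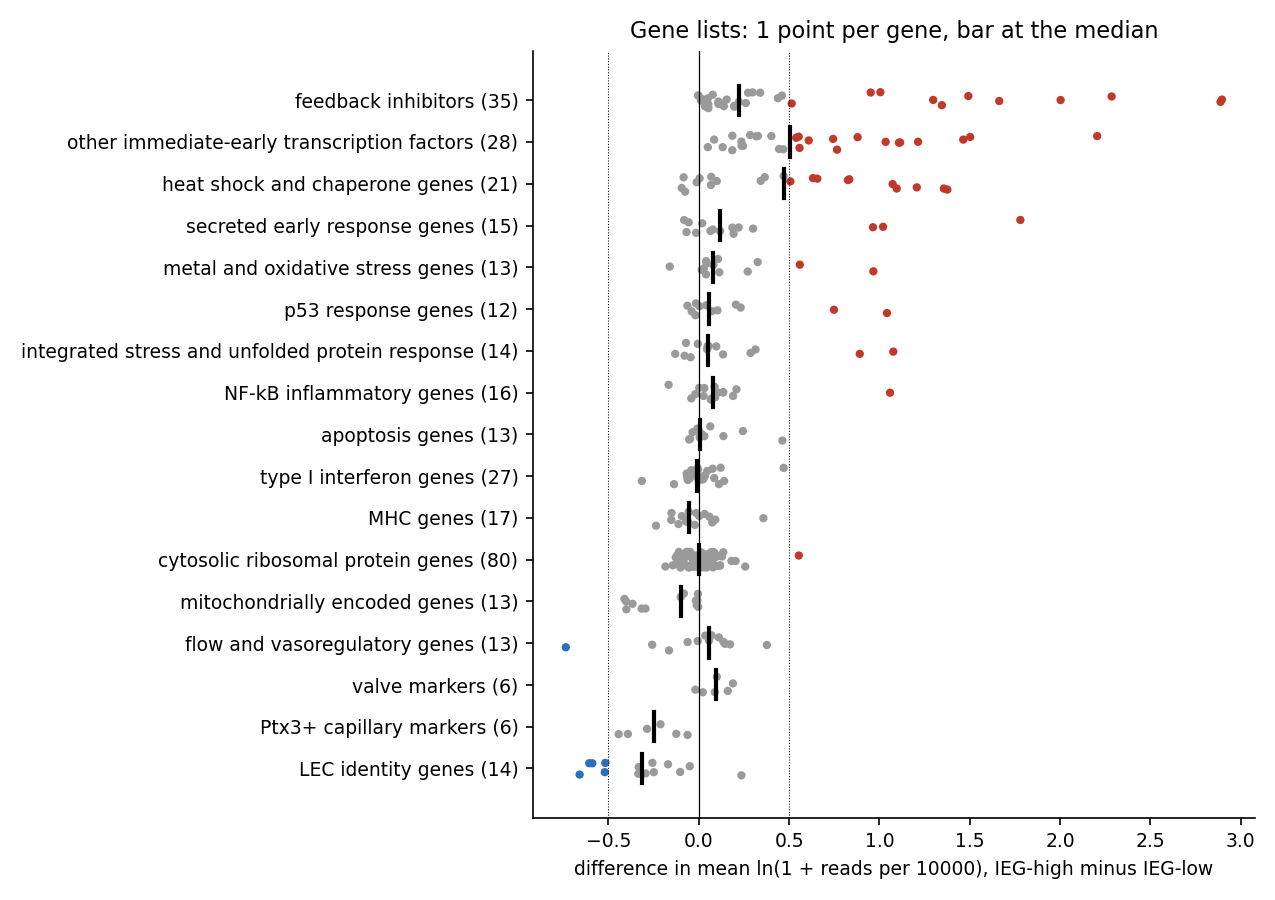
Difference in mean ln value, IEG-high minus IEG-low (x axis), for each tested gene of 17 lists (rows, with the number tested), with a bar at each list's median. Red and blue mark genes at least 0.5 higher or lower, which lie mostly in the feedback, early transcription factor and heat shock rows and in the LEC identity row.

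Of the 98 genes, 49 were in none of the lists. Rgs16, which shortens G-protein signals, had medians of 2.28 (0 to 4.50) and 0.12 (0 to 2.02), a difference in means of 1.84. Sertad1, a transcriptional cofactor, differed by 1.84. H3f3b, encoding the replacement histone H3.3, was 1.30 higher, and Sbno2, a target of the STAT3 pathway, 1.26 higher. Stat3 itself was at the threshold, with 0.51. Of 7 nuclear-retained and quality RNAs tested, 2 (28.6%, against 1.01% of all genes tested) were called higher, Neat1 and Gm26917. The list median was 0.05. The nuclear RNA Neat1, the scaffold of paraspeckles, was 1.29 higher, with medians of 3.33 (0.09 to 5.53) and 2.09 (0.04 to 3.83), whereas Malat1, its abundant neighbour, was 0.50 higher and just under the threshold. Gm26917 was 1.02 higher by ln value but 1.12-fold by linear mean. It overlaps ribosomal RNA sequence, so its reads are uncertain.

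The lower genes were fewer and the differences smaller, and 5 of the 8 were on the list of LEC identity genes. Of 14 such genes tested, 0 were called higher and 5 (35.7%) lower, against 1.01% and 0.0828% of all genes tested. In all, 13 were below 0, and the list median was -0.31 (block SD 0.13). Reln, encoding the secreted glycoprotein reelin of lymphatic endothelium, had medians of 2.13 in IEG-high cells (0 to 4.103) and 2.88 in IEG-low cells (0.04 to 4.70), a difference in means of -0.66 (-1.14 to -0.16 over blocks). Sox18, the transcription factor that starts lymphatic differentiation, had medians of 0.26 (0 to 2.38) and 1.18 (0 to 2.76), a difference of -0.61 (-1.04 to -0.23). Flt4, encoding VEGFR3, the receptor for VEGF-C, had medians of 2.28 (0.19 to 3.55) and 2.78 (1.12 to 3.93), a difference of -0.52 (-0.74 to -0.26). The matrix protein gene Mmrn1 was at -0.52 (-0.90 to -0.01). These 4 were lower in 10 of 10 blocks, as the rule for the most negative differences required, and the ranges of the groups overlapped widely.

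The other called genes were less even across blocks. Lyve1, the hyaluronan receptor of lymphatic capillaries, was at -0.59, but its blocks ran from -1.67 to 0.75 and 8 of 10 were below 0. Aqp1, a water channel, was at -0.74 (-1.72 to 0.63, 8 of 10 below 0). Igfbp7 was at -0.51 (8 of 10) and Igfbp4 at -0.51 (9 of 10), both insulin-like growth factor binding proteins. Among genes short of the threshold but lower in every block were Ctsd (-0.45), a lysosomal protease, Cald1 (-0.41), an actin-binding protein, and Selenop (-0.41), a selenium carrier.

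Because the early genes take reads from all others, differences were also computed with the score genes and the 98 genes left out of each cell's total, a choice made after seeing the data. The LEC identity median was then -0.23. Of the 8 genes, 4 stayed past the threshold, Aqp1 (-0.67), Sox18 (-0.58), Reln (-0.57) and Lyve1 (-0.52), while Flt4 was at -0.42 and Mmrn1 at -0.41. Prox1, the master regulator of lymphatic identity, went the other way in both, at 0.24 and then 0.33, above 0 in 7 of 10 blocks of the former. Pecam1 and Pdpn, the genes of the sort markers CD31 and podoplanin, were at -0.10 and -0.33.

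LEC markers were detected in most IEG-high cells at full depth: Prox1 in 98.8%, Pecam1 in 99.4%, Pdpn in 90.9% and Flt4 in every one. Subtype markers differed without reaching the threshold. The 6 markers of Ptx3+ capillary LECs, an immune-interacting capillary type, were all below 0 with a median of -0.25 (block SD 0.18), and Ackr2, a chemokine scavenger, was furthest at -0.44. The medians were 0.15 for 2 markers of Ptx3- capillary cells, 0.11 for 3 of precollecting vessels and 0.09 for 6 of valves. The part of a shift between LEC subtypes in the lower genes was not tested. Of 13 haematopoietic, 4 epithelial and 3 glial markers in the table none was in enough cells to be tested. Their summed linear levels had a median of 0 in both groups (haematopoietic 0 to 7.04 and 0 to 8.57 reads per 10000, epithelial 0 to 1.37 and 0 to 1.81, glial 0 to 100.6 and 0 to 1.58). Of fibroblast and mural markers, 1 of 8 each was tested, Dcn (-0.04) and Kcnj8 (-0.15). Notch3, Epcam and Krt18 were at 0 in every cell.

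Housekeeping and immune lists stayed near 0. Of 80 ribosomal protein genes 1 was called higher (Rpl41, 0.55), or 1.25% against 1.01% of all genes tested, with a list median of 0.00. Of 27 type I interferon genes 0 were called, with a median of -0.01, and Isg15 was the furthest, at 0.47 (-0.03 to 1.5 over blocks). Of 17 MHC genes 0 were called, with a median of -0.06. The 13 mitochondrially encoded genes were all below 0, with a median of -0.10 and mt-Nd4 at -0.41, mt-Cytb at -0.40 and mt-Nd1 at -0.40. These named genes were lower in 10 of 10 blocks, as the rule for the most negative differences required. The mitochondrial share of reads, a common sign of cell quality, had a median of 1.25% in IEG-high and 1.63% in IEG-low cells, and its part in these differences was not tested. These mitochondrial values keep the early genes in each cell's total, where they take reads from all others. Score genes and genes called higher took medians of 3.18% and 9.88% of reads in IEG-high cells. In IEG-low cells they took 0.0419% and 2.72%. The part of those reads in the lower mitochondrial values was not tested. Thinned to 20000 reads, IEG-high cells held a median of 2911 genes and IEG-low cells 2741.5.

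With all cells in 4 score groups of 25% each, 81 of the 98 genes had means that increased at each step, and all 8 lower genes had means that decreased at each step, against 7.56% and 7.60% of all genes tested. The genes were called on the first and last of these groups, so the order of those 2 is fixed by the choice. Over the 98 genes a median of 48.6% of the way from lowest to highest was reached by the second group and 84.3% by the third. The score itself had means of 0.45, 1.78, 2.76 and 3.53 in the 4 groups. Its steps were uneven, and most of its own rise also came before the last group. These shares are therefore no measure of early or late increase along the score. Zfp36 went from 0.40 through 1.66 and 2.66 to 3.30. Nfkbia reached 3.20 in the third group against 3.06 in IEG-high cells, while Klf2 had made 62% and Ier2 60.1% of the way by then. Sox18 went from 1.13 through 0.94 and 0.61 to 0.52.

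**Figure D5:**
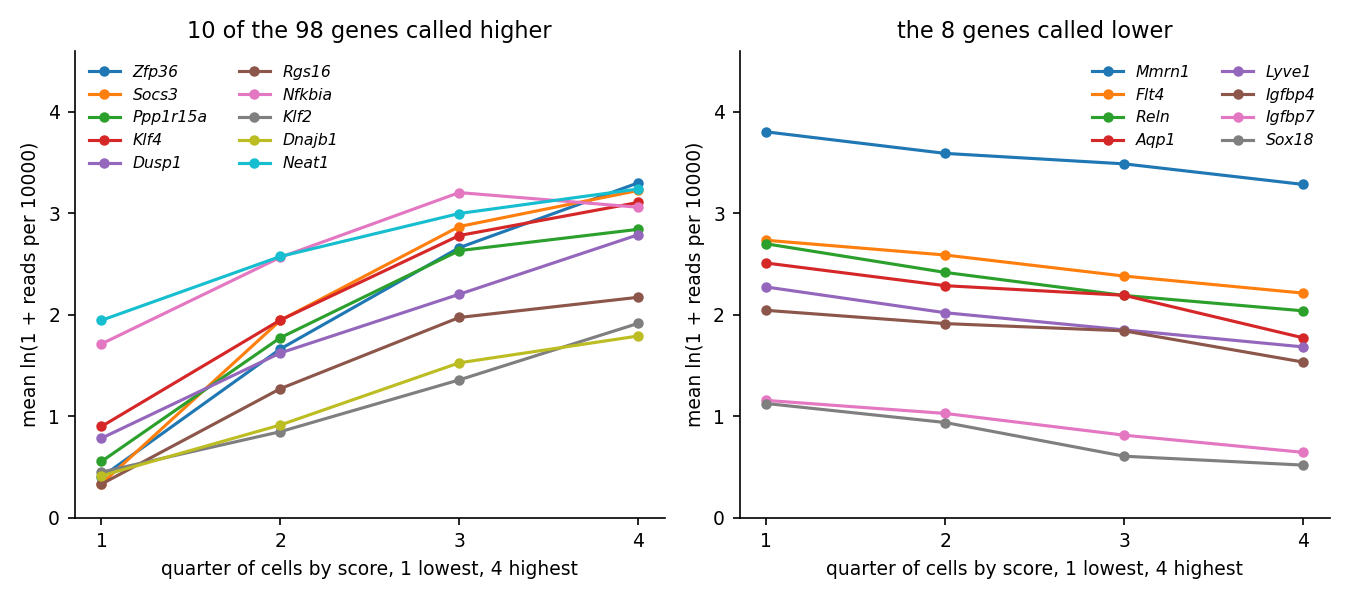
Mean ln value (y axis) of genes called higher (left, 10 of 98) and lower (right, all 8) in the 4 score groups of 25% of cells each (x axis, 1 is IEG-low and 4 IEG-high). Most of the increase lies before the last group, as does most of the rise in the score itself, and Nfkbia is highest in the third.

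Across the 10 blocks compared, 91 of the 98 genes were higher in each and 4 of the 8 lower in each. The blocks split the same cells on which the genes were called, so this is a measure of evenness and no separate support. The exceptions among higher genes named in blocks include Nts, the neuropeptide neurotensin expressed in LECs, which was 1.02 higher overall and ran from -0.14 to 2.43. Over all cells the mean of each list had a rho with the score of 0.85 for feedback inhibitors, 0.78 for other early transcription factors and 0.73 for heat shock genes, against 0.28 for NF-kB inflammatory genes, 0.02 for ribosomal protein genes, -0.32 for mitochondrially encoded genes and -0.35 for LEC identity genes. Feedback inhibitors and NF-kB inflammatory genes had a rho of 0.39 with each other over all cells. Within IEG-high cells the score itself had a rho of 0.31 with feedback inhibitors, 0.14 with other early transcription factors and 0.24 with heat shock genes. In these cells the early transcription factors and the feedback inhibitors had a rho of 0.65 with each other. Heat shock genes had 0.18 with the former and 0.20 with the latter. These are descriptions over cells of 1 pool that share their totals.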

How the data were processed

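Sorted LECs were sequenced by Smart-seq3 from pooled mucosa, treated here as 1 pool. Per the methods and the submitters' processing notes, the authors aligned reads to mm10 with STAR, counted them per gene with featureCounts (Subread) and used Seurat 4.1.0. The labels name 1152 cells, of which 656 were analysed here. The deposited table (23168 genes) holds natural log values of 1 plus reads per 10000: the methods write log2, but back-transformed with base e, the values of each cell add up to 10000. With 1 read set to a cell's lowest non-zero linear value, every value was a whole number of reads within 0.01. A dissociation score was regressed out in the study's clustering, not in this table. No doublet caller was run on these single-cell sorts, and no 2 cells had identical values.

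IEG-high and IEG-low cells were the 164 each of the 656 with the highest and lowest mean of 6 genes, leaving 328 between. Genes detected in at least 10% of cells were compared by difference in mean, and at least 0.5 (a 1.65-fold ratio) was called. Named genes were the score genes, the 20 most positive and 10 most negative differences with 1 sign in all 10 blocks of 96 cell numbers with at least 5 cells of each group, the 10 highest Spearman rho, and for each list the largest 4 differences and genes whose role is described. A few genes that the rule names are not reported here. Other named genes were chosen after their values were seen. Members and lists were chosen with earlier results of these data known. Shares were compared in cells thinned to 20000 reads (88 shallower cells left out, 20 IEG-high and 4 IEG-low; 144 and 160 stayed) with exact intervals at 95%. Alternatives varied the filter, scale, depth, score, group size, cell filters and blocks. Gene positions came from GENCODE M21 (GRCm38), promoter windows from RefSeq. Functions were tested on simulated data. Python 3.11.15, numpy 2.4.6, pandas 2.3.3 and scipy 1.17.1 were used.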

Additional observations from a re-analysis of the deposited data

How the results depend on the processing

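Across all alternatives the 98 genes stayed above 0 and the 8 below 0, but the counts, given as percent of the 9660 genes (1.01% higher and 0.0828% lower in the comparison reported), depend on scale and on the cells compared. With an offset of 0.1 in place of 1, 3.98% were higher and 0.424% lower, and the list medians were 1.21 for early transcription factors, 0.61 for feedback inhibitors and 0.91 for heat shock genes. With the log of linear means, also with an offset of 0.1, 5.39% were higher and 6.20% lower, and these medians were 1.28, 0.88 and 0.81. Comparing the upper with the lower 50% of cells gave 0.590% and 0%, with medians of 0.35, 0.12 and 0.33. IEG-high cells against all other cells gave 0.414% and 0.0104%, with 0.25 for early transcription factors and 0.24 for heat shock genes. The 66 highest against the 66 lowest gave 0.269% lower and 0.59 for heat shock genes. Testing genes in at least 3 cells gave 0.40 for early transcription factors, and in at least 30% of cells 0.44 for feedback inhibitors. The lower genes came to 0.0414% (4 genes) with Junb left out of the score, 0.0518% (5 genes) without block 2, 3 or 7, and 0.0414% (4 genes) with the called genes left out of the totals, the last added after seeing the data. The median share of thinned IEG-high cells in which a called gene was detected was 85.1%, against 93.9% unthinned and 91.2% at 50000 reads. The LEC identity median ran from -0.44 to -0.21. Of 510 further list medians 6.08% moved by more than the spread over blocks, and of 5757 values of single genes 6.39% did; none changed sign after being called. The cause of these changes was not tested. With 1 pool, no setting speaks to spread between animals. No paired analysis was possible because there was 1 group.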

Other observations

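The genes below were picked from the 49 called genes outside the lists after their values were seen, and no list was counted for them. The helicase genes Ddx3x and Ddx5 were 0.84 and 0.74 higher in IEG-high cells. The splicing factor genes Tra2b, Srsf7 and Srsf5 were 0.59, 0.59 and 0.55 higher, the splicing kinase gene Clk1 0.67 and the cyclin gene Ccnl1 0.59. Each was higher in 10 of 10 blocks, which is no separate support because the blocks split the cells used for the call. Hexim1 and Brd2, which encode regulators of transcription elongation and chromatin reading, were 0.69 and 0.61 higher.

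Lmna, encoding lamin A/C, had medians of 2.47 in IEG-high cells (0 to 4.33) and 1.01 in IEG-low cells (0 to 3.78), a difference in means of 1.20 (0.72 to 1.53 over blocks). The tubulin genes Tubb2a and Tubb4b were 0.76 and 0.63 higher and the tropomyosin gene Tpm3 0.75 higher.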
